A study of Mus musculus with 6 samples.

Results

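The splicing factor and heterogeneous nuclear ribonucleoprotein (hnRNP) genes of early T cell progenitors are described here in cells with and without the E proteins E2A and HEB. Members were all genes of the authors' deposited table whose symbol begins with Srsf, Snrp, Sf3a, Sf3b, Hnrnp, Prpf, U2af, Rbfox, Celf or Mbnl, with a digit required after Srsf, Sf3a, Sf3b, Prpf, Celf and Mbnl. The rule found 77 of 22609 genes, 36 of them core spliceosome genes (Snrp, Sf3a, Sf3b, U2af and Prpf) and 41 regulatory genes (Srsf, Hnrnp, Rbfox, Celf and Mbnl). No symbol had to be left out as a pseudogene.

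RNA sequencing was done on early T cell progenitors (ETPs), the most immature cells of the thymus, sorted from fetal thymus (C57BL/6 strain). The control group was 3 libraries labelled wild type, from Lin- cells positive for CD44 and c-Kit and negative for CD4, CD8 and CD25. The double-knockout (dKO) group was 3 libraries of genotype E2Afl/flHEBfl/flIL7RCre, in which a Cre recombinase under the control of the IL7R gene removes both floxed genes, and these cells were additionally sorted for YFP. The control cells were not sorted for YFP, so genotype and gate cannot be told apart. The labels give neither a fetal age nor the animals behind each library, so the p-values cover the spread between libraries alone, and that spread may be technical. For each gene the table gives the mean normalised count of either group with a fold, a p-value and its adjusted value, and nothing per library.

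Splicing removes introns in the spliceosome, a machine built from small nuclear ribonucleoproteins (snRNPs). The Snrp genes encode Sm and snRNP-specific proteins, the SF3A and SF3B complexes help the U2 snRNP bind the branch point, U2AF recognises the end of the intron, and PRPF proteins act in several snRNPs and in the activation of the spliceosome. SR proteins (Srsf genes) and hnRNPs bind exons and introns and shift the choice of splice site, often in opposite directions, and RBFOX, CELF and MBNL proteins set splicing programmes that differ between tissues and developmental stages.

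Most of these genes differed little in level between the groups. Of the 77 members, 74 were tested and 3 (Snrpn, Rbfox1 and Celf6) were listed at 0 in both groups. At the authors' adjusted p under 0.05, 10 of the 74 (13.5%) were called, 3 higher and 7 lower in dKO, and 64 did not pass. Over all 16241 tested genes 29.0% were called, 15.1% higher and 13.8% lower. Genes of high mean were called more often over the whole table, so genes with a mean of at least 1000 over both groups were also set side by side: 8 of 63 members (12.7%) and 43.9% of all 5231 such genes were called. At an adjusted p under 0.01, 4 members passed, beside 21.8% of all tested genes. At an adjusted p under 0.1, 13 passed, beside 33.5%. With a fold of at least 1.5 required as well, 3 passed (Mbnl1, Srsf12 and Prpf40b), beside 19.9%. Genes are not independent replicates, and these shares are given without a test.

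**Figure D1:**
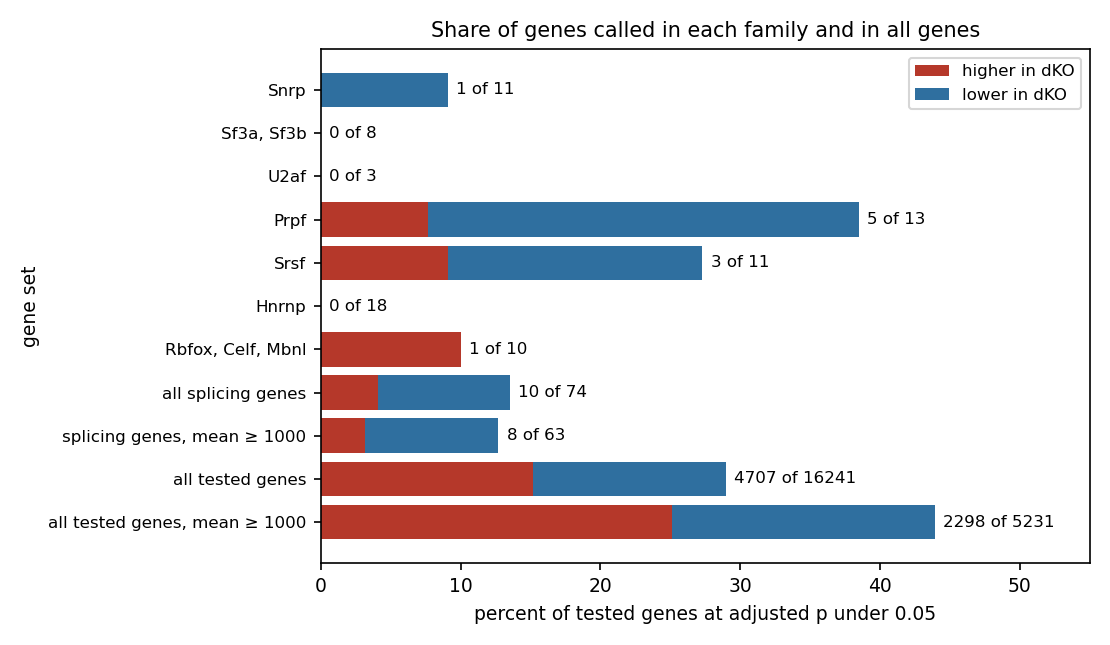
Percent of tested genes called at the authors' adjusted p under 0.05 (horizontal axis) in each gene family, in all splicing genes and in all tested genes, split into higher and lower in dKO, with counts beside the bars. No Sf3a, Sf3b, U2af or Hnrnp gene matched by the rule was called. The bars of the splicing genes (10 of 74) are shorter than those of all tested genes (4707 of 16241).

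The changes were also narrow in size. A log2 change, the log2 of the dKO mean over the control mean, could be given for 73 members, and 56 of them (76.7%) lay within 1.2-fold in either direction. Among members with a mean of at least 1000 this was 53 of 63 (84.1%), beside 48.7% of all tested genes of that abundance. The median size of change without regard to sign was 0.11 on the log2 scale for these 63 members and 0.27 for all 5231 such genes. In the authors' deposited table the 175 genes of that abundance with an unadjusted p from 0.04 to 0.06 had a median log2 change of 0.26 in size (1.2-fold, quartiles 0.23 and 0.28). The 76 with an adjusted p from 0.04 to 0.05 had a median of 0.32 (1.24-fold). These are medians and no upper limit: Srsf9, with a mean above 1000, did not pass at a log2 change of 0.54.

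**Figure D2:**
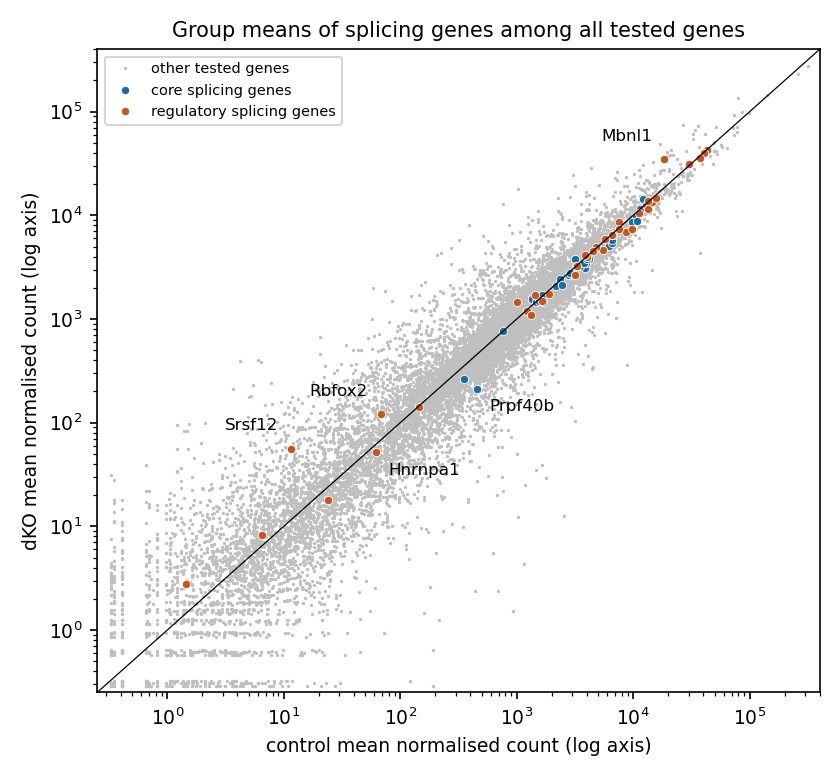
Mean normalised count in dKO (vertical, log axis) against control (horizontal, log axis) for genes above 0 in both groups, with splicing genes coloured and other tested genes in grey. Most splicing genes sit on the diagonal of equal means, while Mbnl1 and Srsf12 lie above it and Prpf40b below.

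The member with the smallest p-value was Mbnl1, an RNA-binding regulator of developmental splicing switches that is sequestered by repeat RNA in myotonic dystrophy. The authors' deposited table gives it a mean normalised count of 18544 in control and 34633 in dKO, a rise of 1.87-fold or 0.90 on the log2 scale (adjusted p = 1.74e-20). Its paralogs did not pass. The authors' deposited table has Mbnl2 at 1236 (control) and 1204 (dKO), with an adjusted p of 0.903, and Mbnl3 at 3142 and 2647, with an adjusted p of 0.109. Within the Rbfox, Celf and Mbnl genes, Mbnl1 alone passed among 10 tested (10% called, beside 29.0% of all tested genes). The summed mean of these genes was 32048 (control) and 48978 (dKO), and most of that difference lay in Mbnl1.

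The members with the largest folds among those called were Srsf12, Prpf40b and Mbnl1. The 250 bases before their annotated transcription starts are shown because the deleted E proteins bind E-boxes, whose general form is CANNTG. Every CANNTG is in capitals, whichever letters fill its middle, so capitals do not mark sites of E proteins, and binding was not tested. The bases were taken from RefSeq promoters on build GRCm38.p6. The submitters' processing notes name mm9 for the reads, so the coordinates are those of GRCm38.p6. All are on the + strand and read 5′ to 3′. RefSeq gives 2 starts each for Mbnl1 and Prpf40b and 1 for Srsf12, and the promoters shown are Mbnl1 (chr3:60472580-60472829), Mbnl1 at its second start (chr3:60500929-60501178), Prpf40b (chr15:99294991-99295240), Prpf40b at its second start (chr15:99303034-99303283) and Srsf12 (chr4:33209022-33209271).
Mbnl1: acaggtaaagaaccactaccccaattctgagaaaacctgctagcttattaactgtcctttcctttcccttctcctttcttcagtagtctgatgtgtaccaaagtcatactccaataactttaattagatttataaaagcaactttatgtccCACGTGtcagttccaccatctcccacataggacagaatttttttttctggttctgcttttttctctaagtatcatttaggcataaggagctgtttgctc
Mbnl1, second start: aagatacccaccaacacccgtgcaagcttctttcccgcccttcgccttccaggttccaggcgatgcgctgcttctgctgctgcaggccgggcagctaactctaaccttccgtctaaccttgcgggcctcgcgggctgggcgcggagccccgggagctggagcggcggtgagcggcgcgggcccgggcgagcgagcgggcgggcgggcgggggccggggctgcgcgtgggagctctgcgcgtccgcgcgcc
Prpf40b: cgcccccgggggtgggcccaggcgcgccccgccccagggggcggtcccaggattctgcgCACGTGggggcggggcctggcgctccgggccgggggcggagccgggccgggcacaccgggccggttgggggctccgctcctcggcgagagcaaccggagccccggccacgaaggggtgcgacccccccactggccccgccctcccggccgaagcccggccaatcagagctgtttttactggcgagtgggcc
Prpf40b, second start: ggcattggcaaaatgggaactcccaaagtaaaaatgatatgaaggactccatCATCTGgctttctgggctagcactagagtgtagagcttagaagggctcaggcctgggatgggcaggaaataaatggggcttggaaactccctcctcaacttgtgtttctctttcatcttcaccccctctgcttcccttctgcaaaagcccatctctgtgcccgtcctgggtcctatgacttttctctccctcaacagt
Srsf12: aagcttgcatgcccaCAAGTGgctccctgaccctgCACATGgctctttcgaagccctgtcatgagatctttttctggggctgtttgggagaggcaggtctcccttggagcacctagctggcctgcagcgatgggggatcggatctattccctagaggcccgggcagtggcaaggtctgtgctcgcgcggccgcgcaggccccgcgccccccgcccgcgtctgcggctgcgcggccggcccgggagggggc

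The first Mbnl1 promoter holds CACGTG starting 99 bases before the start, and the second holds no CANNTG. The first Prpf40b promoter holds CACGTG starting 191 bases before the start, and the second holds CATCTG starting 198 bases before it. The Srsf12 promoter holds CAAGTG and CACATG, starting 235 and 215 bases before the start. Promoters were matched by symbol for 67 of the 77 members (105 promoters) and 8 of the 10 called (11 promoters). CANNTG, searched on both strands as it reads as CANNTG on either, was present in 61.0% of the members' promoters, 63.6% of those of the called members, 59.9% of the 14096 promoters matched to tested genes and 66.2% of all 32851 promoters in the RefSeq set. CAGGTG or its complement CACCTG was in 14.3% of the members' promoters, in 0 of the 11 of the called members, in 16.8% of those of tested genes and in 17.2% of all. In the same order, CAGCTG was in 13.3%, in 0 of the 11, in 12.7% and in 13.0%, and CACGTG was in 8.57%, 18.2% (2 of the 11), 7.82% and 6.02%. These more specific words are also counted under CANNTG, and a match describes letters only.

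Snrp genes encode the Sm ring and the proteins of the U1 and U2 snRNPs. Among 11 tested, 1 fell and 10 did not pass (9.09% called, beside 29.0% of all tested genes). The gene that fell was Snrpb, which encodes the Sm proteins B and B', which the authors' deposited table has at 10726 (control) and 8779 (dKO), 1.22-fold lower (adjusted p = 0.0138). The other Sm genes were at 2887 and 2752 (Snrpd1), 1559 and 1498 (Snrpd2), 3813 and 3484 (Snrpd3), 2372 and 2431 (Snrpe), 349 and 262 (Snrpf) and 2471 and 2116 (Snrpg) in the authors' deposited table, control first. None of these passed, and their adjusted p-values in the authors' deposited table ran from 0.229 to 0.912. Snrpa, the U1 protein A, had means of 3914 and 3480, and Snrpa1, the U2 protein A', had 3115 and 2830. The family's median log2 change was -0.13, with 9 of 11 values below 0.

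All 8 SF3A and SF3B genes lay within 1.2-fold, beside 48.7% of all tested genes with a mean of at least 1000. None passed, beside 29.0% called over all tested genes, and 1 had an unadjusted p under 0.05. The closest to the threshold was Sf3b1, the branch-point protein mutated in several blood cancers, at 12260 (control) and 14381 (dKO) per the authors' deposited table (adjusted p = 0.0518). It was 1.17-fold higher in dKO, and 6 of the other 7 were on the other side of 0. Sf3b2 had 11388 and 11398, and Sf3b3 had 9734 and 8692. The 3 U2AF genes were also within 1.2-fold, with 0 at an unadjusted p under 0.05: U2af1 had 3214 and 3236, U2af2 had 4041 and 3801 and U2af1l4 had 758 and 767. The medians were -0.14 for SF3 and 0.01 for U2AF on the log2 scale.

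Of the 10 called members, 5 were Prpf genes, a family in which 4 of 13 fell, 1 rose and 8 did not pass. That is 38.5% called, beside 29.0% of all tested genes and 43.9% of tested genes with a mean of at least 1000. Prpf40b, a homologue of a yeast U1 snRNP protein, was at 454 in control and at 213 in dKO, 2.13-fold lower per the authors' deposited table (adjusted p = 3.55e-05). Prpf19, the ubiquitin ligase of the complex that activates the spliceosome, fell 1.24-fold from 6247 to 5037 (adjusted p = 0.0106 per the authors' deposited table). Prpf31, a protein of the tri-snRNP mutated in retinal degeneration, fell 1.25-fold from 3864 to 3090 (adjusted p = 0.0132 per the authors' deposited table). The gene that rose was Prpf4b, which encodes a kinase acting on tri-snRNP proteins, from 3158 to 3831 or 1.21-fold (adjusted p = 0.045 per the authors' deposited table). Other than that of Prpf40b, the changes named here were no more than 1.25-fold. Those of largest mean among the rest were Prpf8, the central scaffold of the spliceosome, with 10562 and 9786, Prpf38b, with 3492 and 3216, and Prpf6, with 2839 and 2684.

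Among SR protein genes, 2 of 11 fell, 1 rose and 8 did not pass (27.3% called, beside 29.0% of all tested genes). Srsf6 was at 9709 (control) and 7405 (dKO), 1.31-fold lower (adjusted p = 0.000558 per the authors' deposited table). Srsf5 fell 1.26-fold from 8738 to 6926 (adjusted p = 0.00426 per the authors' deposited table). Both encode SR proteins with paired RNA recognition motifs. The SR genes with the largest means did not pass: the authors' deposited table gives 14507 and 13452 for Srsf1, 13413 and 11466 for Srsf7 (adjusted p = 0.0602) and 12777 and 12519 for Srsf3. Srsf9 was at 1004 and 1460, a 1.45-fold difference that did not pass (adjusted p = 0.293 per the authors' deposited table). Its spread between libraries cannot be seen in group means.

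The SR gene that rose, Srsf12, encodes an SR-related protein known to antagonise SR proteins, and its level was low, 11.5 in control and 55.7 in dKO, a 4.84-fold rise per the authors' deposited table (adjusted p = 0.0119). Means this low are sums of whole reads weighted by library, so the reads of each library could be recovered. Libraries are named by the size factor, the divisor that corrects for depth. In control, Srsf12 had 16, 18 and 0 reads in the libraries of size factor 1.02, 0.952 and 0.823, or normalised counts of 15.6, 18.9 and 0 (SD 10.1, n = 3). In dKO it had 97, 51 and 37 reads in the libraries of size factor 1.16, 1.08 and 1.04, or normalised counts of 83.9, 47.4 and 35.6 (SD 25.2, n = 3). Every dKO library was above every control library, and an exact permutation test over the libraries, 2-sided, gave p = 0.1, the smallest that 3 against 3 allows. Without the control library at 0, of size factor 0.823, the fold was 3.23. Over each library left out in turn it ranged from 3.23 to 7.13.

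None of the 18 Hnrnp genes matched by the rule passed, and 17 of them (94.4%) were within 1.2-fold. Hnrpll, an hnRNP gene whose spelling the rule does not match, was called 1.38-fold higher in dKO. It is given below with the other splicing regulators. Hnrnpa2b1, a reader of RNA in splicing and transport, had 43397 (control) and 42405 (dKO) in the authors' deposited table. Hnrnpf, which binds G-rich RNA, had 40368 and 40147, and Hnrnpu, a nuclear scaffold protein, had 37358 and 35353. Of the 18, 2 had an unadjusted p under 0.05: the authors' deposited table has Hnrnph1 at 5521 and 4674 (adjusted p = 0.074) and Hnrnpa0 at 1332 and 1099 (adjusted p = 0.133). Hnrnpl, a regulator of CD45 splicing in T cells, had 7505 and 7435. The family's median log2 change was -0.04, with a range from -0.28 to 0.11.

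Hnrnpa1, which encodes a founding hnRNP known as an abundant repressor of exons, was listed at means of only 61.4 and 51.8. Its normalised counts were 67.4, 53.6 and 63.2 in the control libraries (SD 7.07, n = 3) and 62.3, 40.0 and 53.0 in the dKO libraries (SD 11.2, n = 3). The groups overlapped (exact permutation test, 2-sided, p = 0.2). In GENCODE M21, 9 other genes, all pseudogenes, matched at least 50% of its longest reading frame at an identity of at least 95%. Whether reads of Hnrnpa1 were lost or split in counting was not tested, and its level is uncertain. Such copies existed for 23 of the 77 members, and Srsf5 (1 other gene) was the sole called member among them. Hnrnpa3 had 24 such genes and means of 3841 (control) and 4143 (dKO). Hnrnpf had 6 and means of 40368 and 40147. How reads with several matches were counted is not given in the sources used here.

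Of the tissue-restricted regulators, several were hardly detected. Rbfox2, a regulator of alternative exons in many tissues, was at 67.8 (control) and 120 (dKO) and did not pass (adjusted p = 0.113 per the authors' deposited table). Its normalised counts were 48.8, 52.5 and 102 in control (SD 29.7, n = 3) and 118, 93.9 and 149 in dKO (SD 27.8, n = 3). The highest control library lay above the lowest dKO library (exact permutation test, 2-sided, p = 0.2). Celf1 and Celf2, the broadly expressed CELF genes, did not pass either: the authors' deposited table has 1448 and 1721 for Celf1 (adjusted p = 0.157) and 7578 and 8624 for Celf2 (adjusted p = 0.179).

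The neuronal genes Celf3, Celf4, Celf5 and Rbfox3 had few reads. Celf3 had 7, 21 and 35 reads in the control libraries and 30, 7 and 22 in the dKO libraries, in the order of size factors given for Srsf12. Celf4 had 13, 2 and 4 in control and 10, 14 and 3 in dKO. Celf5 had 0, 3 and 1 in control and 4, 0 and 5 in dKO. In all 3 genes the groups overlapped, and no difference was detectable at this depth. Rbfox3 had 1 read in 1 control library and none in dKO, under the floor of 3 reads over a group, so no fold is given for it.

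**Figure D3:**
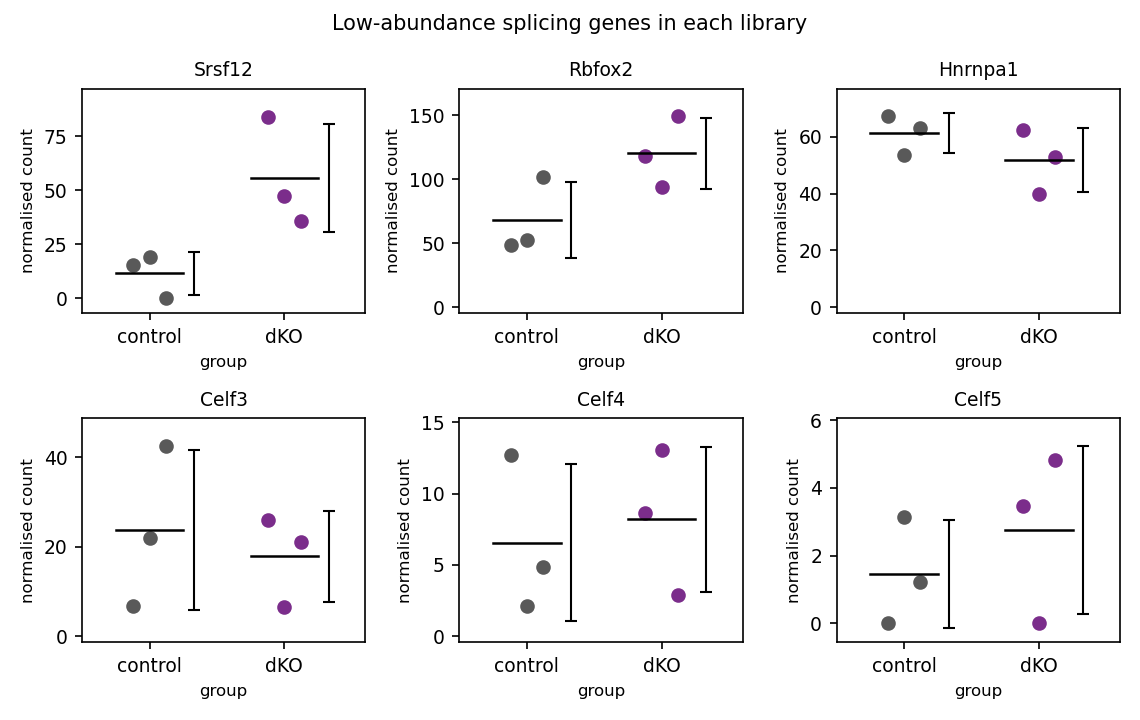
Normalised counts (vertical axis) of 6 low-abundance splicing genes in each library, as recovered from the group means, with the group mean (horizontal line) and SD (bar) for 3 control and 3 dKO libraries. Control and dKO libraries of Srsf12 are separate (0 to 18.9 against 35.6 to 83.9), and those of the other 5 genes overlap. These libraries are the ones behind the call of Srsf12, and how often groups separate over all genes was not counted.

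Core spliceosome genes were compared with regulatory genes. Of the 35 core genes tested, 1 rose, 5 fell and 29 did not pass (17.1% called). Of the 39 regulatory genes tested, 2 rose, 2 fell and 35 did not pass (10.3% called). Over all tested genes 29.0% were called. The median log2 change was -0.11 for core genes and -0.03 for regulatory genes (38 with a value), beside -0.01 over all tested genes. The values lay below 0 for 25 of 35 core genes and for 24 of 38 regulatory genes. Core genes ran from -1.09 to 0.28 and regulatory genes from -0.41 to 2.27. The difference between the medians was 0.08 on the log2 scale, and it was not tested. Summed over the genes, the core means went from 142618 in control to 134174 in dKO and the regulatory means from 341311 to 346872. Mbnl1 alone went from 18544 to 34633, a larger rise than that of the regulatory sum. The sum of the other regulatory genes therefore fell.

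**Figure D4:**
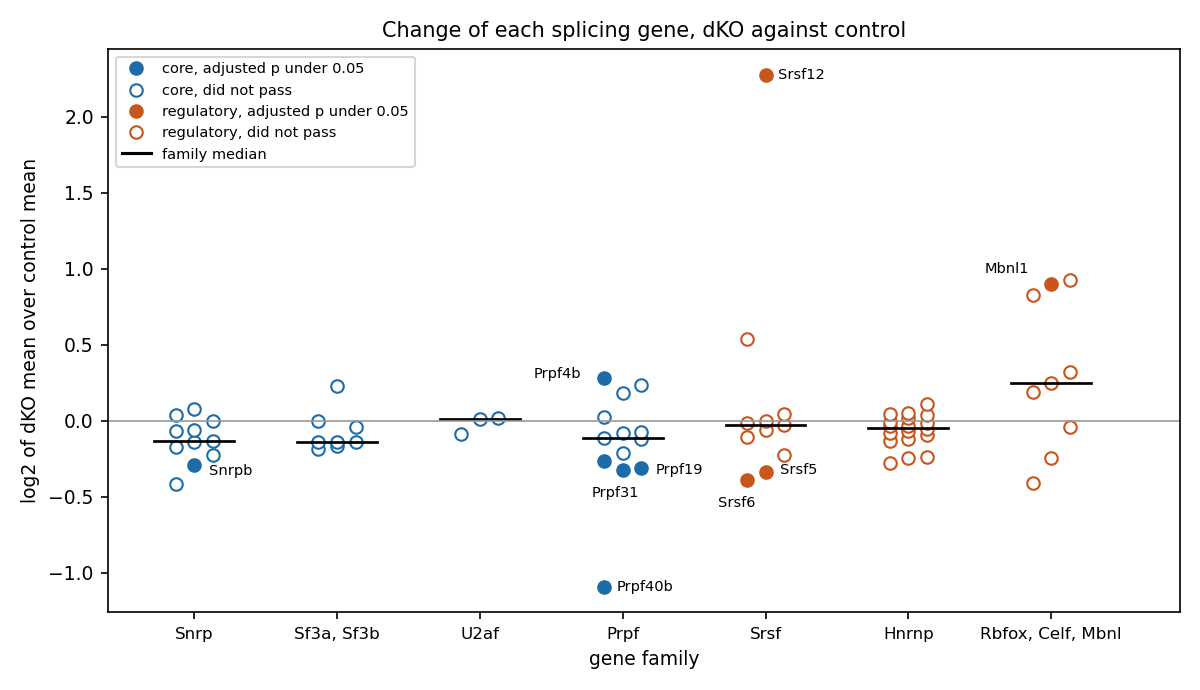
Log2 of the dKO mean over the control mean (vertical axis) for each splicing gene with a value, by family, in blue for core and orange for regulatory genes. Filled points passed the authors' adjusted p under 0.05, horizontal lines are family medians, and all Hnrnp points lie between -0.28 and 0.11.

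Splicing genes outside the rule were taken from lists of other pathway members, to be read beside the 29.0% called over all tested genes. Of 43 other core spliceosome genes, none rose, 3 fell (6.98%) and 40 did not pass. Their median log2 change was -0.02. Per the authors' deposited table those that fell were Nhp2l1, a tri-snRNP protein, from 6406 to 4562 (1.4-fold), Rbm17, from 5793 to 4108 (1.41-fold), and Ppie, from 2233 to 1725 (1.29-fold). None of 9 minor spliceosome genes, which act on a rare class of introns, passed, and 1 had an unadjusted p under 0.05. Their median was 0.28, with 7 of 9 above 0.

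Of 34 other splicing regulators, 2 rose, 3 fell and 29 did not pass (14.7% called). Their median was -0.11. Hnrpll, an hnRNP gene outside the rule by its spelling, drives skipping of variable CD45 exons in activated lymphocytes. Its means were 3292 (control) and 4552 (dKO), 1.38-fold higher per the authors' deposited table (adjusted p = 0.000105). Ptprc, which encodes CD45, rose 1.41-fold from 12323 to 17415 (adjusted p = 1.66e-06 per the authors' deposited table), and gene-level means do not show its exons. The authors' deposited table has the exon regulators Tia1 1.52-fold lower (4375 and 2882), Qk 1.57-fold lower (2261 and 1443) and Tra2a 1.33-fold lower (1985 and 1490). The other riser was the epithelial regulator Esrp2, at 0.405 and 18.0 per the authors' deposited table (adjusted p = 0.0432), where the control mean is that of 1 read. Of 9 genes for SR protein kinases and nuclear import, Clk4, an SR protein kinase, rose 1.37-fold from 1142 to 1564 and Tnpo3, the import receptor of SR proteins, fell 1.27-fold from 5236 to 4137; the other 7 did not pass (22.2% called).

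Some genes outside splicing also differed between the groups. Their counts are to be read beside the 29.0% called over all tested genes. Among tested genes with a mean of at least 1000, 43.9% were called. In the authors' deposited table Tcf3, which encodes E2A, went from 8931 to 364 and Tcf12, which encodes HEB, from 3845 to 562. Of 9 genes of the gate and of early progenitors, 2 rose (Kit, 14094 and 19067, and Ptprc), 2 fell (Flt3, 1080 and 327, and Cd4, 104 and 34.8) and 5 did not pass (summed means 39777 and 48914). Among those, Cd44 was at 3220 and 2765, and Il2ra, which encodes the CD25 that the sort excluded, was at 8417 and 8536. Of 10 innate lymphoid markers 9 rose, and their summed mean went from 14079 to 51974, while the summed mean of 6 myeloid markers went from 8916 to 2550 (1 rose and 3 fell). Of 5 tested dendritic markers 1 rose and 1 fell (summed means 2530 and 4391, with Siglech at 0). Of 4 tested B cell markers 1 fell (124 and 46.1, with Pax5 and Ms4a1 at 0). None of 3 tested erythroid (158 and 110, with the globin genes Hba-a1, Hba-a2, Hbb-b1 and Hbb-b2 at 0) or 7 tested thymic stroma markers passed (294 and 453, with Cdh5 and Pdgfra at 0). Of 20 proliferation genes, all with a mean of at least 1000, 8 rose and 2 fell (50% called). Of 83 ribosomal protein genes 1 rose and 19 fell (24.1% called, median log2 change -0.21). The part of these in the changes of splicing genes was not tested, and in bulk samples fewer cells of a type and less RNA per cell cannot be told apart.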

How the data were processed

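One table of the whole series was used. Per the labels' protocols, total RNA of sorted cells was amplified with a low-input SMARTer kit and sequenced on an Illumina HiSeq. The submitters' processing notes name bcl2fastq 1.8.4, TopHat2 2.0.14, DESeq 2 and build mm9, without roles; counter and annotation: not given in the sources used here. The 2 columns of signal hold mean normalised counts, computed by the authors over the libraries of control and of dKO, per the file headers. Summed over all genes, these means came to 22.1 M for control and 23.4 M for dKO. The fold column is the authors' ratio of dKO over control. The p-values and adjusted p-values are the authors' own, as deposited; Benjamini-Hochberg adjustment redone on the deposited p-values differed by at most 4.08e-07. No new test across genes was made, since the table has no values per library. The deposited log2 column was not used, and log2 changes were taken from the group means.

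Reads per library were recovered for members with means low enough to have a unique solution in whole reads. All of 300 values per group up to a mean of 100 had 1 solution, against 0.5% (control) and 0% (dKO) of random values, and on simulated data of both groups, 200 values each, 100% were right. For Rbfox2 in dKO, at a mean of 120, the check from 100 to 200 applies: 93.3% of 300 dKO values had 1 solution, 6.5% of random values had at least 1, and 100% of unique solutions on simulated data were right. Amplified reads are not independent molecules, so a floor set in reads understates the error of low counts. The SDs are the observed spread of normalised counts over the 3 libraries of a group. Near-identical copies were searched with blast 2.17.0; other steps used Python 3.11.15. Members, classes and lists were chosen with earlier results of these data known. Named were the called members (1 is counted but not reported here), the 3 most abundant per family that did not pass, all members with a mean under 100, and up to 4 called genes of the other core, regulator and kinase lists; other members were named after their values were seen.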

Additional observations from a re-analysis of the deposited data

How the results depend on the processing

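No paired analysis was possible because the table gives group means and no value per replicate; for the same reason no replicate could be left out of the counts of calls. The count of called members (10, 3 higher and 7 lower) became 4 (1 and 3) at an adjusted p under 0.01 and 3 with a fold of at least 1.5 required (2 higher and 1 lower). It was 13 at an adjusted p under 0.1, and 12 and 11 with adjustment redone over genes with a mean of at least 10 and 100. Rescaling both groups to the same total, a shift of 0.08 on the log2 scale, moved the median log2 changes to -0.14 (all members), -0.19 (core) and -0.11 (regulatory), and put 60 of 73 members below 0 in place of 49. It changed the sign of 11 members, none of them called. A rescaling shifts every member alike, so it cannot change the core minus regulatory difference of medians. Under the filters and regroupings tried, that difference stayed between -0.10 and -0.08. Without the control library of size factor 0.823, Celf3 changed side, to 0.31 on the log2 scale. Celf4 (0.32) changed side to -0.10 without the control library of size factor 0.952 and to -0.18 without the dKO library of size factor 1.08. Celf4 and Celf5 also moved up or down by over 1.5-fold without other single libraries. None of these 3 was called.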
